A study of Mus musculus with 5 samples.

Results

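Opioid signalling genes were followed in mouse embryonic cortical cells made to express Ptf1a. The members were the 8 rows of the deposited gene table, of 23234 in all, that carry the symbols of the opioid peptide precursors (Penk, Pdyn, Pnoc and Pomc) and of the opioid receptors (Oprm1, Oprd1, Oprk1 and Oprl1); all 8 symbols were found. Ptf1a-misexpressing cells came from CD1 cortices electroporated in the embryo with a construct carrying Ptf1a and GFP (3 samples), and control cells from CD1 cortices electroporated with a construct carrying GFP alone (2 samples). Electroporation was at E12.5 (embryonic day) and harvest at E15.5, and each sample pooled GFP-positive cells from 3 to 6 brains. Cells of both groups thus carried GFP, and the promoter driving the constructs is not given in the sources used here. The authors merged the samples of a group into 1 FPKM value per gene (a fragment count divided by transcript length and library size), so no value per sample, no SD and no depth per sample can be given here, and whether samples of the groups overlapped could not be seen.

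Opioid peptides are cut from larger precursor proteins and act on G protein-coupled receptors that couple to inhibitory G proteins, which lower cyclic AMP, open inward-rectifying potassium channels and close calcium channels. Penk yields enkephalins, which favour the delta and mu receptors, Pdyn yields dynorphins, which favour the kappa receptor, and Pomc yields beta-endorphin together with melanocortin peptides and corticotropin. Pnoc yields nociceptin, a peptide of related structure that acts on its own receptor, encoded by Oprl1. In the dorsal spinal cord, where Ptf1a specifies inhibitory neurons, enkephalin, dynorphin and nociceptin precursors are used by local neurons, many of them inhibitory. In the cortex enkephalin and nociceptin precursors are known mainly from interneurons.

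Penk and Pnoc rose with Ptf1a, Oprl1 fell, Pomc was not called and the other 4 members stood in rows without a test. A gene was called at a q-value under 0.05 in the authors' deposited table, as a rise or a fall in the Ptf1a samples relative to the GFP-only samples. Among the 11876 tested rows, 18.7% rose and 19.1% fell, and 2 of the 4 tested members rose and 1 fell. Among rows of at least 1 FPKM in either group, 17.9% rose and 21.1% fell, and the members' counts were the same. With a further minimum change of 2-fold, 6.67% of tested rows rose and 1.87% fell, and 2 members rose and 0 fell. The smallest deposited p-value, 5e-05, was shared by 1803 rows and gave q = 0.000329 in the authors' deposited table for Penk, Pnoc and Oprl1 alike, so the q-values do not rank these genes. Their statistics in the authors' deposited table did differ, at 5.30 for Penk, 5.12 for Pnoc and -1.80 for Oprl1. Dividing the deposited log2 fold change by its statistic gives an implied standard error, used below for approximate 95% intervals (1.96 standard errors on either side).

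**Figure D1:**
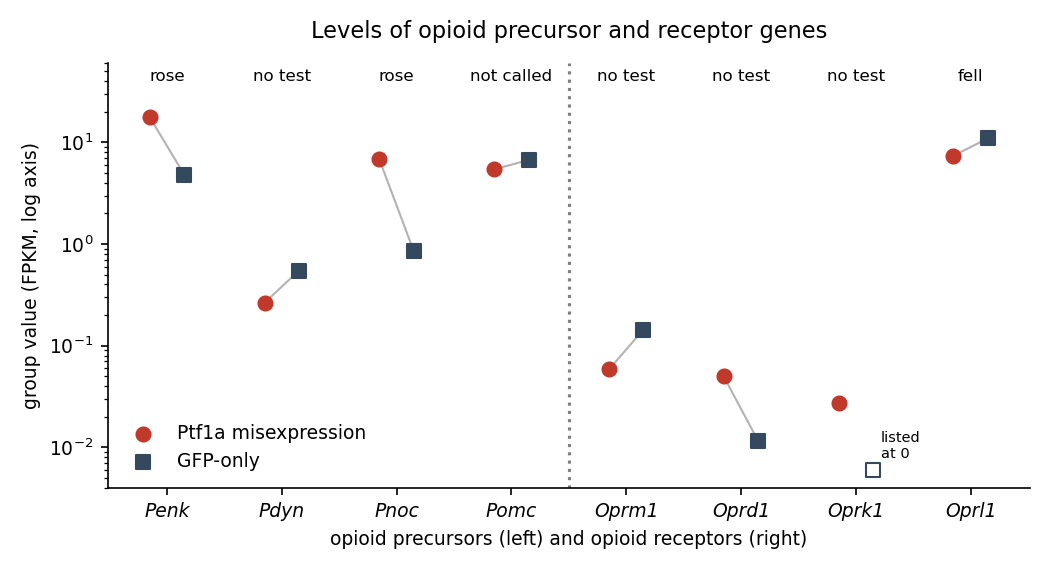
Group value in FPKM on a log axis for each of the 8 genes in the Ptf1a samples (red circles) and the GFP-only samples (dark squares), 1 merged value per group and no error bars, with the authors' call above each gene. Penk (17.7 and 4.82 FPKM) and Pnoc (6.79 and 0.851 FPKM) are higher with Ptf1a, Oprl1 is lower, and Oprm1, Oprd1 and Oprk1 lie below 1 FPKM in both groups.

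Among the precursors, Penk was the most abundant with Ptf1a. It stood at 17.7 FPKM in the Ptf1a samples, against 4.82 FPKM in the GFP-only samples, a ratio of 3.67. The log2 fold change in the authors' deposited table was 1.88, with an implied standard error of 0.35 and an interval of 1.18 to 2.57. Its locus lies on chromosome 4, 4060683 to 4065592 (mm9). The Ptf1a level was above that of 85.7% of all rows and the GFP-only level above that of 74.7%. The nearest neighbours of Penk in the table were 56022 bp (Sdr16c6, to the left) and 625909 bp (Impad1, to the right) away. Impad1 stood at 3.32 and 3.40 FPKM in the Ptf1a and GFP-only samples and was not called. Sdr16c6 was listed at 0 in both groups without a test.

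Pnoc had the larger fold of the 2 risen precursors, from a lower control level. The nociceptin precursor stood at 6.79 FPKM in the Ptf1a samples, against 0.851 FPKM in the GFP-only samples, a ratio of 7.99. The log2 fold change in the authors' deposited table was 3.00, with an implied standard error of 0.59 and an interval of 1.85 to 4.15, which overlaps that of Penk; the difference between the 2 folds was not tested. Pnoc lies on chromosome 14, 66019510 to 66044309 (mm9). The row for Zfp395, whose locus ends 1743 bp to the left, stood at 0.239 FPKM in the Ptf1a samples and 0.242 FPKM in the GFP-only samples without a test, and Elp3 on the other side was not called.

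Both rises were large for genes of their abundance. On the log2(FPKM + 0.1) scale, which understates the change of weak genes, the difference between Ptf1a and GFP-only values was 1.85 for Penk and 2.86 for Pnoc. The value of Penk exceeded that of 99.2% of the 1187 tested rows in its bin of mean level, of 10 bins in all, and the value of Pnoc that of 99.0% of 1188 such rows. In these bins 14.9% of rows rose at the level of Penk and 23.5% at the level of Pnoc. The median difference fell with abundance over the whole table, and stood at -0.06 in the bin of Penk and 0.13 in that of Pnoc.

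**Figure D2:**
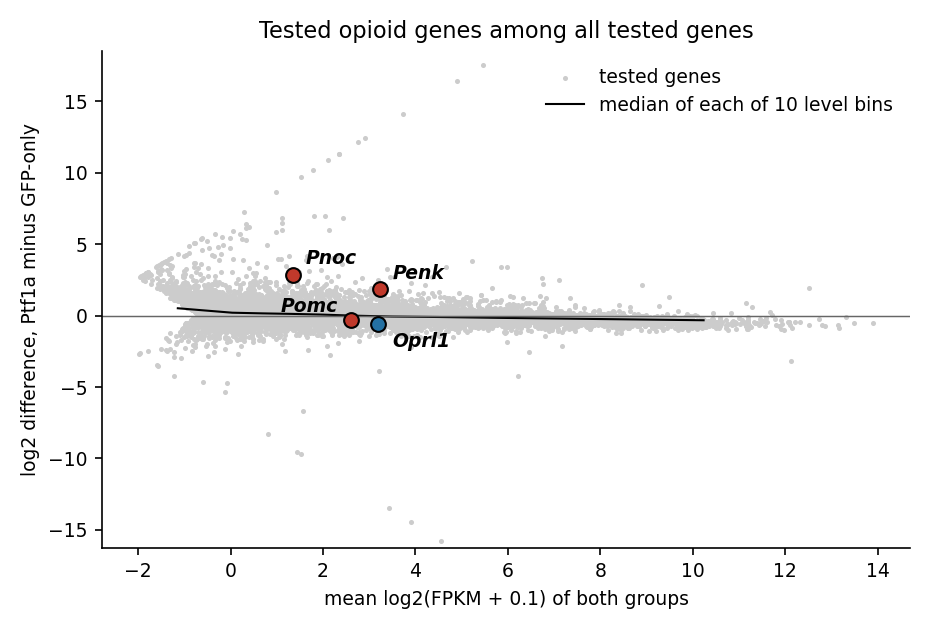
Log2 difference (Ptf1a minus GFP-only) against the mean log2(FPKM + 0.1) of both groups for all tested rows (grey), with the tested precursors in red, Oprl1 in blue and the median of each of 10 bins of level as a black line. Pnoc (2.86) and Penk (1.85) lie above most genes of their level. Pomc (-0.30) lies above 20.4% of the tested rows in its bin. Oprl1 (-0.56) lies above 7.92% of those in its own, where 18.8% of rows fell.

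Pomc, the precursor of beta-endorphin and the melanocortins, was not called. It stood at 5.43 FPKM in the Ptf1a samples, against 6.70 FPKM in the GFP-only samples. The log2 fold change in the authors' deposited table was -0.30 with q = 0.293, and the implied interval ran from -1.08 to 0.48. Pomc lies on chromosome 12, 3954951 to 3960618 (mm9). Efr3b, whose locus begins 1936 bp to the right, rose to 2.29 FPKM in the Ptf1a samples, against 1.68 FPKM in the GFP-only samples (q = 0.0275 in the authors' deposited table).

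Pdyn, the dynorphin precursor, was the weakest precursor in both groups. It stood at 0.264 FPKM in the Ptf1a samples and 0.547 FPKM in the GFP-only samples, in a row without a test on chromosome 2, 129513737 to 129515604 (mm9). Of the 12683 rows under 1 FPKM in both groups, 87.9% likewise had no test. No direction can be given for Pdyn.

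The makeup of the precursor transcripts differed between the groups. Summed over the 4 genes, the level was 30.2 FPKM in the Ptf1a samples and 12.9 FPKM in the GFP-only samples, a ratio of 2.34 that was not tested. Penk made up 58.6% of the sum in the Ptf1a samples and 37.3% in the GFP-only samples. Pnoc made up 22.5% with Ptf1a and 6.58% in the controls, whereas Pomc made up 18.0% with Ptf1a and 51.8% in the controls. By level the order was Penk, Pnoc, Pomc and Pdyn in the Ptf1a samples and Pomc, Penk, Pnoc and Pdyn in the GFP-only samples. With single group values, whether neighbours in this order differ beyond their spread could not be tested; Pnoc and Pomc in the Ptf1a samples were the closest pair, at a ratio of 1.25, followed by Penk and Pomc in the controls, at 0.720.

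**Figure D3:**
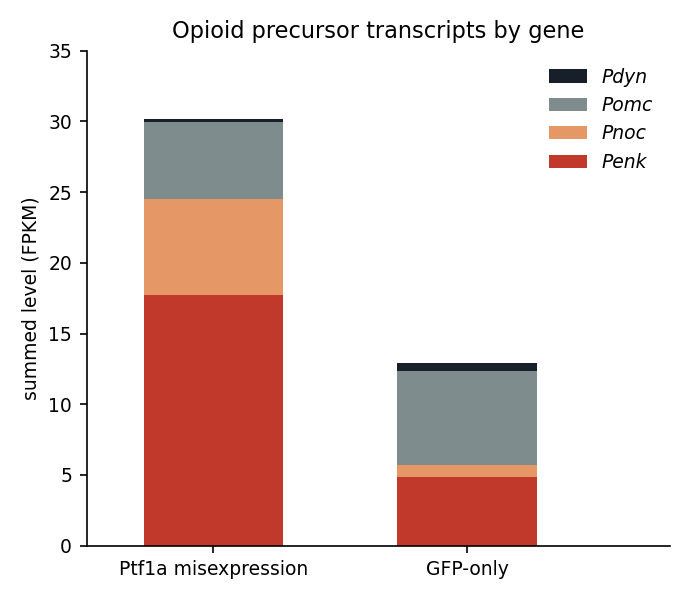
Summed level in FPKM of the 4 opioid precursor genes in the Ptf1a samples (left bar) and the GFP-only samples (right bar), stacked by gene, 1 merged value per group. The bar reaches 30.2 FPKM with Ptf1a, mostly Penk and Pnoc, and 12.9 FPKM in the controls, where Pomc is the largest piece.

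Of the receptors, the nociceptin receptor gene Oprl1 held nearly all the signal. It fell to 7.38 FPKM in the Ptf1a samples, against 10.96 FPKM in the GFP-only samples, and made up 98.2% of the summed receptor level with Ptf1a and 98.6% in the controls. The log2 fold change in the authors' deposited table was -0.57 with q = 0.000329, but the implied interval of -1.19 to 0.05 includes 0. A two-sided normal p of the deposited statistic was 0.0714, and 0.369 after Benjamini-Hochberg adjustment over 11831 rows, so the call of Oprl1 rests on the authors' p-value. The adjusted values for Penk and Pnoc by the same route were 1.65e-05 and 3.75e-05. By that route 3.31% of rows rose and 2.81% fell, and 56.0% of all rows called by the deposited q had a statistic smaller than 1.96 in size. Oprl1 lies on chromosome 2, 181449721 to 181455690 (mm9). Myt1, 42347 bp to the right, rose to 1.99 FPKM with Ptf1a, against 1.27 FPKM in the controls. The nearest row to the left, 4930526D03Rik, ended 16574 bp away and was listed at 0 in both groups without a test. Further left lay Rgs19 (181423128 to 181428629, mm9), a regulator of G protein signalling. Rgs19 was not called, at 30.1 and 34.9 FPKM in the Ptf1a and GFP-only samples.

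In the nociceptin pair the ligand gene rose and the receptor gene fell by the deposited q, the fall being lost with the normal p and with the 2-fold minimum. Per length, Pnoc was at 0.921 times the level of Oprl1 in the Ptf1a samples and at 0.0776 times in the GFP-only samples. For the enkephalins and dynorphins the receptor transcripts were scarce. The mu receptor gene Oprm1 stood at 0.0584 FPKM in the Ptf1a samples and 0.144 FPKM in the GFP-only samples. The delta receptor gene Oprd1 stood at 0.0498 FPKM with Ptf1a and 0.0115 FPKM in the controls. The kappa receptor gene Oprk1 stood at 0.0273 FPKM with Ptf1a and was listed at 0 in the controls. All 3 were in rows without a test, and no direction can be given for them. The deposited locus of Oprm1 (chromosome 10, 3308332 to 3557940, mm9) is also that of Ipcef1, which rose to 1.11 FPKM with Ptf1a, against 0.558 FPKM in the controls; how reads were divided between these genes is not given in the sources used here. Oprd1 lies on chromosome 4, 131666641 to 131700401, and Oprk1 on chromosome 1, 5578574 to 5596214 (mm9).

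Ptf1a binds DNA through E-boxes, whose letters are CANNTG, and its trimeric complex with Rbpj also reads a box with the letters TTTCCCA. RefSeq start windows (250 bases before to 50 after an annotated start, GRCm38.p6) were matched for 5 of the 8 genes, Pdyn, Pomc, Oprl1, Oprd1 and Oprm1, with 10 windows in all; Penk, Pnoc and Oprk1 had no entry. The windows of the tested genes that hold an E-box are shown, 1 of Pomc and 2 of the 3 of Oprl1, 5′ to 3′ on the gene's strand with E-boxes in capitals.
Pomc (chr12:3954695-3954994, plus strand): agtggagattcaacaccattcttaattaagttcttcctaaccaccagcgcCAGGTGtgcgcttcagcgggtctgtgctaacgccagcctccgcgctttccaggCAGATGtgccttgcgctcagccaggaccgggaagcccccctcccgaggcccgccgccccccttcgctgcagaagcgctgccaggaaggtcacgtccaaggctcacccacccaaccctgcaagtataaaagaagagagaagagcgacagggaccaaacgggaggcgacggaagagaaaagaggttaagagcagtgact
Oprl1, upstream start (chr2:181714766-181715065, plus strand): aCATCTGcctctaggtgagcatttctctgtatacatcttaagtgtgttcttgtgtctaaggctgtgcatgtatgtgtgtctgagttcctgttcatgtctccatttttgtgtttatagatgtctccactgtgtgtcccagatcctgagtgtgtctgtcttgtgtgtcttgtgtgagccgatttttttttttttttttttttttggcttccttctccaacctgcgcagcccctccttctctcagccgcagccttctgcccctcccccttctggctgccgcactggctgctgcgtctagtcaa
Oprl1, downstream start (chr2:181715440-181715739, plus strand): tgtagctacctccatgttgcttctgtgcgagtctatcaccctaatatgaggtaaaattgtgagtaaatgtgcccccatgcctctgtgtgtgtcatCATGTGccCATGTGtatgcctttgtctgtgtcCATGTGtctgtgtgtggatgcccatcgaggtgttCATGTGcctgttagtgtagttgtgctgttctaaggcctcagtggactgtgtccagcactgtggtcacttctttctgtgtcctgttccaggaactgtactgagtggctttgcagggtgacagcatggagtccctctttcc
The Pomc window held 2 E-boxes, CAGGTG beginning at position -200 and CAGATG at position -147, counted back from the base before the start. The upstream Oprl1 window held 1 at its far end, and the downstream one 4 copies of CATGTG within a stretch rich in GT. The window of Oprd1 held 2, and those of Pdyn and Oprm1 held 0. E-boxes are common letters: 72.3% of the 32851 windows in the table hold at least 1, with a median of 1 per window. The letters CAGCTG (16.3% of windows), TTTCCCA (8.06%) and the cyclic AMP response letters TGACGTCA (1.79%) and TGCGTCA (2.12%), each searched on both strands, were in none of the 10 windows. CAGCTG is also counted as an E-box. These matches describe letters only, and no binding was measured.

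The genes that make, cut and receive opioid peptides were then counted over lists, beside a median log2 difference of -0.01 over all tested rows, of which 18.7% rose and 19.1% fell. Those shares moved with level: over 10 bins of mean level, the share that rose was 34.2% in the weakest bin and 3.45% in the most abundant one, and the share that fell was 5.05% and 58.8% in the same bins. Among precursor processing genes, 1 of 11 tested members rose and 4 fell, with a median log2 difference of -0.28. Pcsk1, which encodes prohormone convertase 1 and was chosen after its values were seen, fell to 0.229 FPKM in the Ptf1a samples, against 0.818 FPKM in the controls. Pcsk1n, an inhibitor of that convertase, fell to 4.41 FPKM in the Ptf1a samples, against 8.05 FPKM in the controls. Scg5, a chaperone of prohormone convertase 2, fell to 559 FPKM with Ptf1a, against 758 FPKM in the controls. Ctsl, a cysteine protease that can cut proenkephalin, rose to 51.6 FPKM with Ptf1a, against 36.7 FPKM in the controls. The carboxypeptidase gene Cpe, at 95.4 and 90.5 FPKM in the Ptf1a and GFP-only samples, was not called, nor were Pam and Qpct. Rnpep fell to 9.10 FPKM with Ptf1a, against 12.1 FPKM in the controls. Of peptidases that break opioid peptides down, 2 of 7 tested members rose and 1 fell (median -0.06). Dpp3, an enkephalin-cleaving dipeptidyl peptidase, fell to 28.8 FPKM with Ptf1a, against 40.7 FPKM in the controls, and Ece2 rose to 25.3 FPKM, against 18.4 FPKM. The deposited statistics of Rnpep (-1.29) and Ece2 (1.33) were smaller in size than that of Oprl1 (-1.80). The neprilysin gene Mme, which encodes the classical enkephalinase and was chosen after its values were seen, stood at 0.0759 and 0.0213 FPKM without a test.

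Genes of opioid receptor signalling rose in 7 of 20 tested members and fell in 3, beside 18.7% and 19.1% of all tested rows, with a median log2 difference of 0.21. Adrbk2, a kinase that desensitises G protein-coupled receptors, rose to 1.32 FPKM in the Ptf1a samples, against 0.254 FPKM in the controls. Rgs20 rose to 5.20 FPKM with Ptf1a, against 2.42 FPKM in the controls, while Rgs7 fell to 0.915 FPKM, against 2.24 FPKM in the controls; both encode regulators that speed the turning off of G proteins. Gnaz, an inhibitory G protein subunit, fell to 1.53 FPKM with Ptf1a, against 2.34 FPKM in the controls. The subunit genes Gnao1 (20.4 and 24.95 FPKM) and Gnai3 (16.0 and 14.9 FPKM) were not called. In the melanocortin list, whose receptors respond to the other products of Pomc, 0 of 3 tested members rose and 1 fell. That was the receptor gene Mc4r, at 10.9 FPKM with Ptf1a and 21.0 FPKM in the controls. Among other opioid-binding proteins 1 of 5 rose and 2 fell (median -0.25). The adhesion molecule gene Opcml rose to 1.15 FPKM with Ptf1a, against 0.692 FPKM in the controls. The opioid growth factor receptor gene Ogfr fell to 21.2 FPKM with Ptf1a, against 26.5 FPKM in the controls, and Ogfrl1 to 0.924 FPKM, against 1.50 FPKM. Rtp4 and Cxcr7 were not called. The deposited statistics of Gnaz (-1.19), Opcml (1.48), Ogfr (-1.25) and Ogfrl1 (-1.49) were smaller in size than that of Oprl1 (-1.80).

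**Figure D4:**
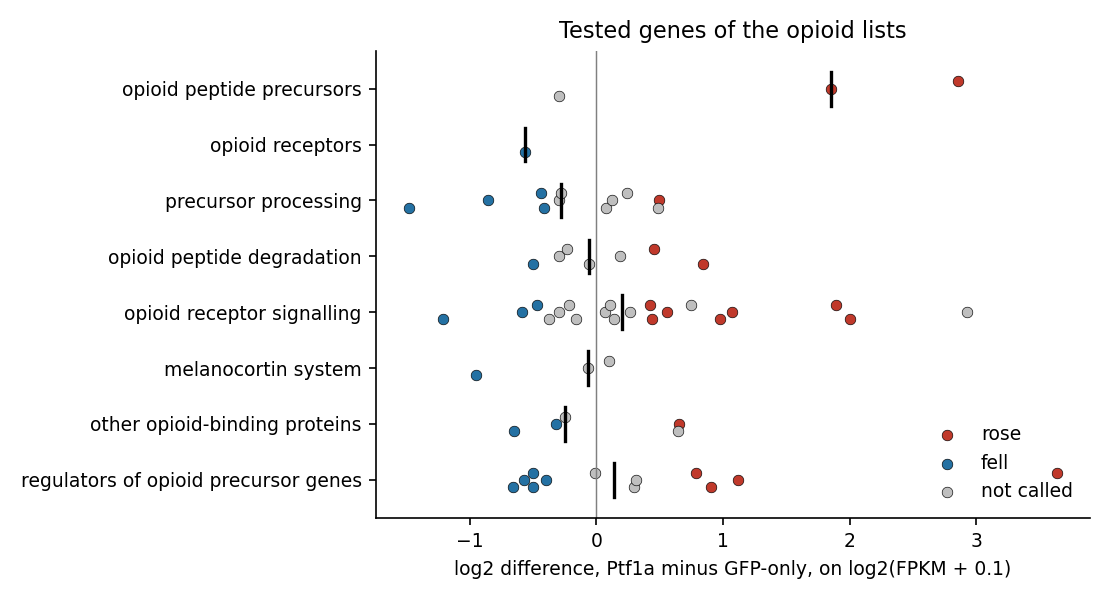
Log2 difference (Ptf1a minus GFP-only, on log2(FPKM + 0.1)) of each tested gene in the opioid lists, red where it rose, blue where it fell and grey where it was not called, with the list median as a black bar. The precursors Penk (1.85) and Pnoc (2.86) lie to the right of every gene of the processing, degradation, melanocortin and opioid-binding lists, while Ebf1 (3.64) and Kcnj6 (2.93, not called) lie to the right of Pnoc, and Adrbk2 (2.01) and Rgs9 (1.90) to the right of Penk.

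Factors listed as regulators of opioid precursor genes, or of cells that can express them, rose in 4 of 12 tested members and fell in 5. Of all tested rows 18.7% rose and 19.1% fell. The median log2 difference of the list was 0.14. Kcnip3, which encodes the calcium-binding repressor DREAM first described at the dynorphin gene, rose to 15.51 FPKM in the Ptf1a samples, against 8.21 FPKM in the controls. Ebf1, a factor of striatal neurons for which no action on an opioid gene is given here, rose to 18.7 FPKM with Ptf1a, against 1.41 FPKM in the controls. Isl1, which acts on Pomc in the hypothalamus, rose to 4.53 FPKM with Ptf1a, against 2.58 FPKM in the controls. The immediate early gene Nr4a1, which acts on Pomc in the pituitary, fell to 3.99 FPKM with Ptf1a, against 6.35 FPKM in the controls. Its statistic in the authors' deposited table was -1.90, smaller in size than 1.96. Fos (71.6 and 71.9 FPKM), Creb1 and Foxp1 were not called, and Tbx19 and Pitx1, pituitary regulators of Pomc chosen after their values were seen, stood at or near 0 without a test.

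Over the 2 group values, the genes most like Penk by distance on the log2(FPKM + 0.1) scale were Plcxd3 (distance 0.11, at 17.8 FPKM with Ptf1a and 4.45 FPKM in the controls), Bicd1 (0.14) and the small RNA gene Snord22 (0.21), the last not called. Most like Pnoc were Upp1 (0.07, at 6.96 FPKM with Ptf1a and 0.812 FPKM in the controls), Ripply3 (0.10) and Bcan (0.24). Most like Oprl1 were Gnb1l (0.02), 2610301G19Rik (0.05) and Tnfaip8l1 (0.05), of which the second was not called. With 2 values per gene, likeness says only that the levels in both groups are close.

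Markers of several cell types moved with the groups, and in bulk samples more cells of a type and more RNA per cell cannot be told apart. The labels call the cells of both groups cortical pyramidal cells. Beside the counts below, 18.7% of all tested rows rose and 19.1% fell. By bin of mean level these shares ran from 34.2% and 5.05% in the weakest to 3.45% and 58.8% in the most abundant. All 9 pyramidal markers were tested, with a summed level of 1285 FPKM with Ptf1a and 1836 FPKM in the controls, and 6 fell and 0 rose. Most of both sums was Neurod6, at 1190 FPKM with Ptf1a and 1717 FPKM in the controls. Cortical interneuron markers, a class that can express Penk and Pnoc, rose in 5 of 6 tested members of 10. Their summed level was 17.3 FPKM with Ptf1a and 7.84 FPKM in the controls. Dlx6 had no test, at 0.149 FPKM with Ptf1a and listed at 0 in the controls. Striatal projection neuron markers rose in 3 of 6 tested members of 11, Ebf1, Isl1 and Meis2, and Ppp1r1b, Foxp1 and Tac1 were not called. Only part of this class is rich in Penk, and the count does not single that part out. The sums of the list were 70.8 and 45.4 FPKM in the Ptf1a and GFP-only samples, with Ebf1 alone at 18.7 and 1.41 FPKM. Drd2 (0.280 FPKM with Ptf1a, listed at 0 in the controls), Adora2a (0.171 and 0.0945 FPKM) and Gpr6 (0.0486 and 0.170 FPKM) had no test. Radial glia markers rose in 9 of 9, with sums of 3457 FPKM with Ptf1a and 1802 FPKM in the controls. Most of both sums was Fabp7, at 3095 FPKM with Ptf1a and 1652 FPKM in the controls. Meningeal fibroblast markers, another class with Penk, had sums of 2.79 and 4.22 FPKM with 0 risen and 1 fallen of 2 tested among 8. Foxc1 had no test, at 0.0304 FPKM with Ptf1a and listed at 0 in the controls. Red blood cell markers fell in 3 of 5, with sums of 62.1 and 149 FPKM. Microglial markers fell in 1 of 5 tested (sums 11.9 and 16.7 FPKM) and endothelial markers rose in 1 of 2 (6.36 and 3.84 FPKM). The part of these classes in the levels of Penk, Pnoc and Oprl1 was not tested. Inhibitory dorsal horn genes, some of which also stand in the interneuron list, rose in 7 of 10 tested members of 16. The 2 that fell were Bhlhe22 and Nr4a2. Pax2, Lhx1, Lhx5, Gbx1, Slc32a1 and Slc6a5 had no test. Ptf1a itself, at 38.9 FPKM in the Ptf1a samples and 0.210 FPKM in the controls, is one of the risen genes and includes reads of the construct. Gal, another peptide of inhibitory dorsal horn neurons, rose to 12.8 FPKM with Ptf1a, against 3.59 FPKM in the controls, and Npy was not called.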

How the data were processed

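RNA from GFP-positive cells of 3 Ptf1a and 2 GFP-only samples was sequenced. Per the submitters' processing notes, Cuffdiff was used along with Cufflinks 2.1.1, TopHat2 2.0.8 and CASAVA 1.8.2, on build mm9; roles, annotation and parameters are not given in the sources used here. The deposited FPKM values are 1 merged value per group, per the file headers, and the deposited log2 fold change is Ptf1a over GFP-only. The table's test statistic is a score with a sign, deposited with a p-value and a q-value per row. The group headed PIG was read as the Ptf1a construct, since the other heading is GFP. The Ptf1a gene itself stood at 38.9 FPKM under PIG and 0.210 FPKM under GFP. Of 23234 rows, 11876 were tested, 11194 had no test, 148 had too little data and 16 too much. Depth per sample is unknown. Whether the samples of a group are separate cultures or litters is not stated beyond their pooled brains.

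Calls used the deposited q under 0.05. Recomputing the Benjamini-Hochberg adjustment gave the deposited q within 5.2e-07, and this step was tested on simulated data. Log2 differences used a pseudocount of 0.1 FPKM. Locus starts were taken as 0-based and printed 1-based. Named genes are the 8 members, their table neighbours and Rgs19, and the 3 genes most like each called member. Per list they also include up to 4 called members with the largest difference at 1 FPKM or more in either group. Up to 3 uncalled list members with the highest mean level are named as well. Genes outside this rule were chosen after their values were seen, and only some are marked so in the text. Not every gene under this rule is printed. One gene of the opioid-binding list is not reported here and was left out of its counts. Members and lists were chosen with earlier results of these data known. Analyses used Python 3.11.15, pandas 2.3.3 and SciPy 1.17.1.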

Additional observations from a re-analysis of the deposited data

How the results depend on the processing

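The 2 rises and the 1 fall were unchanged in number at a deposited q under 0.01 and under 0.1 and with a minimum of 1 FPKM. With the normal p of the deposited statistic, and with a minimum change of 2-fold, 2 members still rose and 0 fell, Oprl1 being the one lost in both. Under 2 other pseudocounts and 2 centrings the log2 difference of Penk ranged from 1.68 to 1.91, that of Pnoc from 2.07 to 2.98, that of Oprl1 from -0.57 to -0.50 and that of Pomc from -0.30 to -0.26. For the untested members the pseudocount set the size. With a pseudocount of 1 FPKM and with one of 0.01 FPKM, Pdyn was at -0.29 and -1.02, Oprm1 at -0.11 and -1.17, Oprd1 at 0.05 and 1.47 and Oprk1 at 0.04 and 1.90, so these values carry no weight. No paired analysis was possible because the table holds 1 merged value per group, and for the same reason no sample could be left out.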
